A study of Homo sapiens with 6 samples.

Results

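The genes described here are the E2F transcription factors E2F1, E2F2, E2F3, E2F4, E2F7 and E2F8, the pocket protein genes RBL1 and RBL2, and LIN9 and LIN54, which encode subunits of the MuvB complex. They were chosen by name, and all 10 of them were found among the 60671 genes of the expression table. The samples were 6 RNA-seq libraries of U87, an established human glioblastoma cell line. In the rutaecarpine group, 3 libraries came from cells exposed for 48 h to 100 µM rutaecarpine, an alkaloid of Evodia rutaecarpa that the study examined as an activator of the aryl hydrocarbon receptor (AhR). In the solvent control group, 3 libraries came from cells exposed for 48 h to DMSO alone. DMSO was at 0.1% in both groups and the dosing medium was serum-free, so the controls also lacked serum during the exposure. U87 is 1 line, and nothing in the labels says whether the libraries came from separate cultures, so p-values measure only the spread between these libraries.

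E2F proteins bind the promoters of genes needed for DNA replication and cell division. E2F1, E2F2 and E2F3 are the activators, and E2F4 is a repressor that works with the pocket proteins. E2F7 and E2F8 are atypical repressors that bind DNA without a TFDP protein as partner and are themselves transcribed late in G1 and in S phase. In resting cells, p130 (RBL2) or p107 (RBL1) joins E2F4 and the MuvB core, which contains LIN9 and LIN54, to form the DREAM complex that represses cell cycle genes, and when cells divide the MuvB core switches to B-Myb and FOXM1 and activates the genes of G2 and mitosis.

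The E2F binding consensus was looked up in the promoters of the members, because several E2F genes are known targets of E2F proteins themselves. The letters searched on both strands were TTTCCCGC, TTTCGCGC, TTTGCCGC and TTTGGCGC, in RefSeq windows of 250 bases before to 50 bases after each annotated start (GRCh38.p14). A window was found for 9 of the 10 members, and E2F8 had none in the table. The 4 members with a match were E2F1, E2F2, E2F3 and RBL1. Of the 35116 windows in the whole table, 3.31% held such a match. That share is per window, whereas the members were counted by gene and some have several windows. Counted by gene, 701 of the 10357 tested genes with any window held a match. The lines show the 60 bases before the start, read 5′ to 3′ on the strand of the gene, for these 4 genes and for E2F7 and E2F4, which had no match in their windows; capitals mark the letters of the consensus on either strand.
E2F1, chr20:33686386-33686445, minus strand: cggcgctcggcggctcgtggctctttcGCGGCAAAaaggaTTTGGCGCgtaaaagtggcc
E2F2, chr1:23531234-23531293, minus strand: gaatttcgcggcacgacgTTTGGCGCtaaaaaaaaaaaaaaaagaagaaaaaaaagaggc
E2F3, chr6:20401819-20401878, plus strand: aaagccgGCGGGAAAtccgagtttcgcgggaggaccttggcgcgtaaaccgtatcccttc
RBL1, chr20:37095998-37096057, minus strand: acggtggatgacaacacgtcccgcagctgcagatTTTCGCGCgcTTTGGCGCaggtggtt
E2F7, chr12:77065570-77065629, minus strand: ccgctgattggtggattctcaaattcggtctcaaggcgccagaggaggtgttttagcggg
E2F4, chr16:67192095-67192154, plus strand: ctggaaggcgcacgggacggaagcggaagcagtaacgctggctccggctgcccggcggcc
E2F1 and RBL1 each held 2 matches, which do not overlap. The second set of letters, TTTGAA, is the cell cycle homology region (CHR) that LIN54 contacts. It was present in windows of E2F3, RBL2, LIN9 and LIN54, against 15.2% of all windows and 1427 of the 10357 tested genes with any window. The letters TNGCGTG, the core of the element that AhR binds, were in the windows of 0 of the 9 members. They were in 5.51% of all windows and in 987 of the 10357 tested genes with any window. A match is a description of the sequence, and its absence says only that these letters are not in the window.

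The deposited values were TPM, a level scaled for transcript length and for the library total, so the read depth of each library is unknown. Control replicate 3 stood apart from the others. Across tested genes its log2(TPM + 1) values correlated with those of the other control libraries at r = 0.965, whereas control replicates 1 and 2 correlated at r = 0.986. It was low for long transcripts. Relative to the mean of control replicates 1 and 2, its median deviation on the log2(TPM + 1) scale went from 0.12 in the fifth of tested genes with the shortest transcripts to -0.70 in the fifth with the longest. Rutaecarpine replicate 2 showed the same kind of trend to a smaller degree, from 0.06 to -0.29 against the mean of the other rutaecarpine libraries. Several members have long transcripts, and the values of LIN54, E2F7, RBL2 and RBL1 in control replicate 3 lay 1.17 to 1.40 below the other controls on that scale, while E2F1, E2F4 and E2F2 deviated by -0.08 to 0.12. The results on the members are therefore given with and without this library. A fit with the trend on transcript length removed from each library was added after the data were seen, and its counts are given among the alternatives. Of 9 genes used as U87 markers, 8 reached 1 TPM in at least 1 library and S100B did not, and the glial marker GFAP was low, at 3.48 to 5.41 TPM. OLIG2 was low too and was called higher, at 1.48 to 1.73 TPM in the controls and 3.07 to 4.11 TPM after rutaecarpine (limma adjusted p = 0.0262). The markers VIM, FN1 and NES were called lower, with log2 differences of -0.63, -0.89 and -0.53 (limma adjusted p = 0.00894, 0.00972 and 0.0491). The summed TPM of the 9 genes, carried mostly by VIM, FN1 and S100A6, was 25655 to 26240 in the controls and 18537 to 18644 in the rutaecarpine libraries, and their part in the results was not tested. Of 9 markers of leukocytes, endothelium, epithelium and neurons, 4 reached 1 TPM, with sums of 490.38 to 540.15 in the controls and 348.91 to 383.84 after rutaecarpine, mostly from CD68, and their part was not tested either. PTPRC, CDH5 and RBFOX3, which define leukocytes, endothelium and neurons, were at or below 0.15 TPM in every library, and EPCAM and CDH1 of epithelium stayed below 1 TPM. SNAP25, a neuronal gene, was at 14.7 to 27.49 TPM, KRT8 of epithelium at 7.94 to 12.65 TPM, and PECAM1 of endothelium reached 1.33 TPM.

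**Figure D1:**
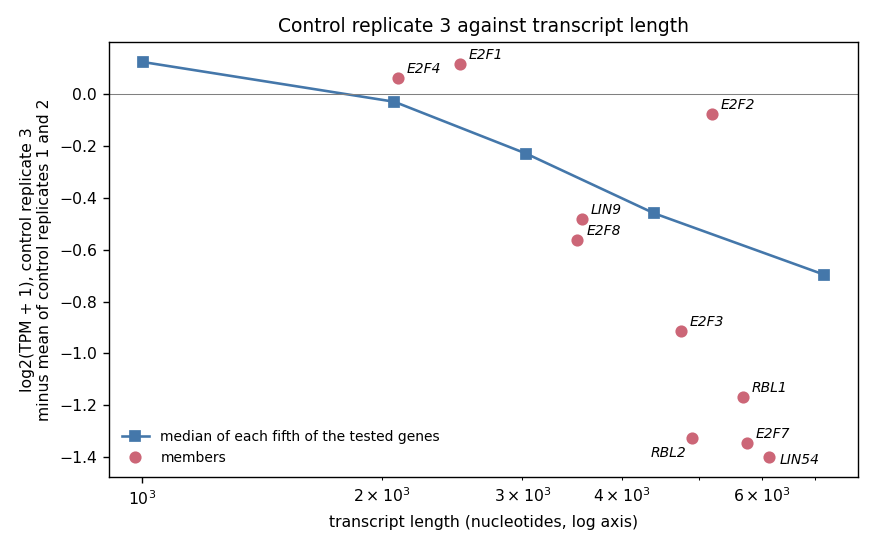
Deviation of control replicate 3 from the mean of control replicates 1 and 2, in log2(TPM + 1), against transcript length on a log axis. Squares are the medians of the 5 length classes of the tested genes, which fall from 0.12 to -0.70, and circles are the 10 members, of which LIN54, E2F7, RBL2 and RBL1 lie below -1.

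Compared with the solvent control group, E2F1, E2F2 and E2F8 were lower in the rutaecarpine group, by 2.11-fold, 3.53-fold and 3.17-fold, while E2F7, the other atypical E2F, was 2.73-fold higher and just missed the adjusted threshold. The values of E2F7 did not overlap between the groups. RBL1 was lower relative to RBL2 in every rutaecarpine library than in any control. Of the 10 members, 3 were called lower and 0 higher by limma (Benjamini-Hochberg adjusted p of at most 0.05 over 14377 tested genes). Across all tested genes, 4.68% were called lower and 4.60% higher, which makes 9.29% in either direction. When control replicate 3 was left out, limma called 5 members lower and 1 higher, against 10.3% and 8.20% of all tested genes. Without rutaecarpine replicate 1 the count was 1, and without any other single library it was 2. In these fits 3.75% to 4.99% of all tested genes were called. All 10 members passed the filter on low values, but E2F2, among the 3 called, passed only through the control libraries. With 1 TPM required in every library E2F2 dropped out and 2 members were called, against 9.81% of all genes tested in that fit. Values in whole cultures cannot separate fewer cells in a given phase from less RNA per cell.

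**Figure D2:**
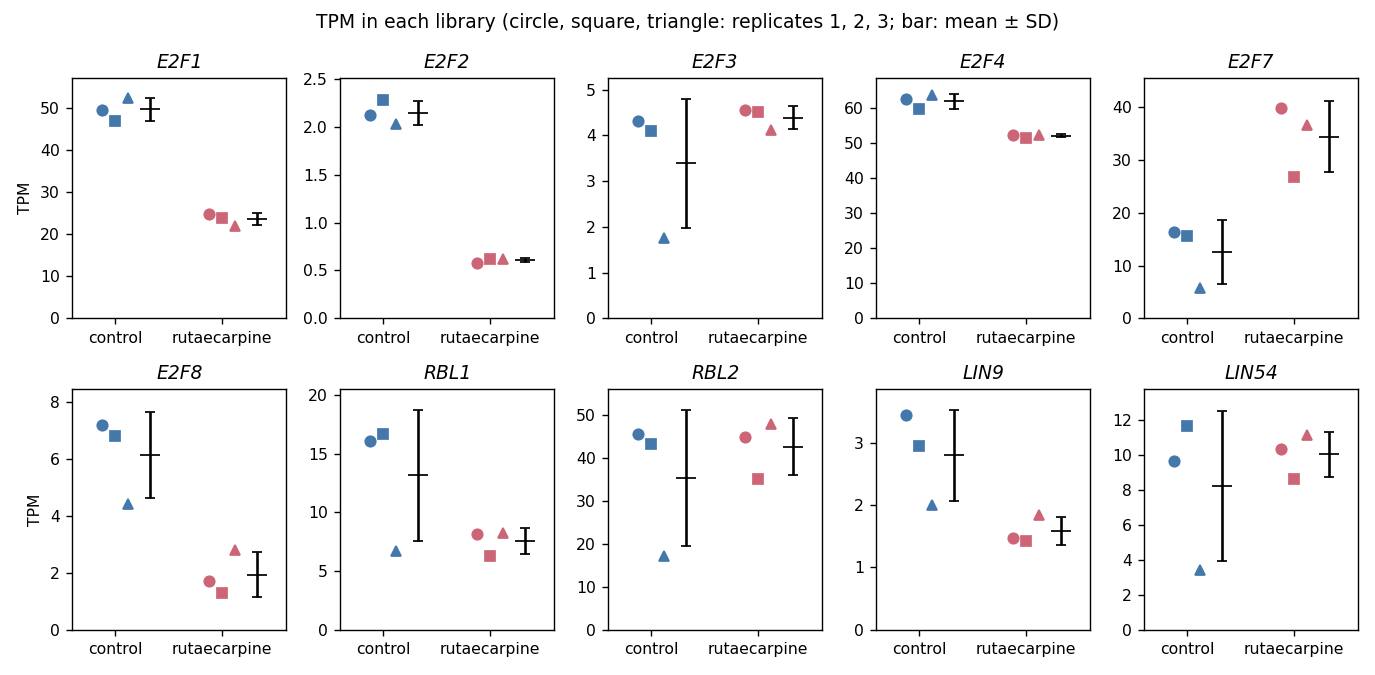
TPM of the 10 members in each library, with replicates 1, 2 and 3 as circle, square and triangle and the mean ± SD beside them, on axes that start at 0. The groups do not overlap for E2F1, E2F2, E2F4, E2F7, E2F8 and LIN9, and the triangle of control replicate 3 lies far below the other controls for E2F3, E2F7, RBL1, RBL2 and LIN54.

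Among the activators, E2F1 (ENSG00000101412, chr20:33675683-33686404, minus strand, GRCh38) was the most abundant. This gene drives entry into S phase and carried 2 consensus matches close to its start, as shown above. Its TPM was 49.58, 46.91 and 52.33 in the controls and 24.76, 23.75 and 21.95 in the rutaecarpine libraries. Every rutaecarpine library lay below every control, and control replicate 3 was the highest of all. The mean fell from 49.6 ± 2.71 to 23.5 ± 1.42 TPM (SD, n = 3 each), 2.11-fold lower. The log2 fold change on log2(TPM + 1) was -1.05 (SE 0.10, 95% confidence interval -1.29 to -0.81, limma adjusted p = 0.0015). Without control replicate 3 it was -1.01, and E2F1 stayed past the threshold in 16 of 16 alternative settings.

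E2F2 (ENSG00000007968, chr1:23506430-23531220, minus strand), a close relative of E2F1 that has been linked to proliferation, was the least abundant member. Its TPM was 2.12, 2.28 and 2.03 in the controls against 0.58, 0.62 and 0.62 after rutaecarpine. The groups were far apart and the spread within each was small. The mean fell from 2.14 ± 0.127 to 0.607 ± 0.0231 TPM, 3.53-fold lower. On the log2(TPM + 1) scale, which understates the change of such a low gene, the difference was -0.97 (SE 0.15, limma adjusted p = 0.0102), and -0.99 without control replicate 3. E2F2 entered the test only because its control values reached 1 TPM, so its entry depended on the group where it was high. With no filter on low values it was still called (limma adjusted p = 0.034). It stayed past the threshold in 12 of 15 alternatives. It missed with the replicate number as a block (limma adjusted p = 0.0797), without rutaecarpine replicate 1 (limma adjusted p = 0.0582) and without rutaecarpine replicate 3 (limma adjusted p = 0.0545), and it had no value where a TPM of at least 1 was required in every library.

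E2F3 (ENSG00000112242, chr6:20401906-20493715, plus strand), the third activator, did not pass the test. Its TPM was 4.32, 4.09 and 1.76 in the controls and 4.55, 4.51 and 4.11 in the rutaecarpine libraries. Control replicate 3 stood at 41.9% of the mean of the other controls, and those lay within the rutaecarpine range or near it. The log2 difference was 0.35 (95% confidence interval -0.29 to 1.00, limma adjusted p = 0.471), and without control replicate 3 it was 0.05 with an interval of -0.30 to 0.40. E2F1, E2F2 and E2F3 all carried a consensus match, so the activators that were lower and the activator that was not called shared this feature.

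E2F4 (ENSG00000205250, chr16:67192169-67198918, plus strand), the repressor that enters DREAM, was the most abundant member in both groups. Its TPM was 62.66, 59.72 and 63.81 in the controls and 52.34, 51.61 and 52.44 after rutaecarpine. The groups did not overlap, but the difference was small, with means of 62.1 ± 2.11 and 52.1 ± 0.453 TPM, 1.19-fold lower. It missed the adjusted threshold (log2 difference -0.25, SE 0.08, limma adjusted p = 0.116), also without control replicate 3 (-0.23, limma adjusted p = 0.0681). Over all members, 5 had rutaecarpine values below every control and 1 had values above every control. The background was 14.0% of tested genes in the former direction and 19.3% in the latter.

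The atypical E2Fs moved apart. E2F8 (ENSG00000129173, chr11:19224063-19241620, minus strand) had a TPM of 7.21, 6.82 and 4.42 in the controls and 1.71, 1.30 and 2.81 in the rutaecarpine libraries. Control replicate 3 was the lowest control and rutaecarpine replicate 3 the highest treated library, and a gap remained between them. The mean fell from 6.15 ± 1.51 to 1.94 ± 0.781 TPM, 3.17-fold lower, with a log2 difference of -1.29 (SE 0.26, 95% confidence interval -1.91 to -0.68, limma adjusted p = 0.0258). The log2 difference without control replicate 3 was -1.48 (limma adjusted p = 0.00579), and E2F8 stayed past the threshold in 10 of 16 alternatives. It missed when control replicate 1 or 2 or rutaecarpine replicate 1 or 2 was left out, with limma adjusted p = 0.0909 to 0.109 and log2 differences of -1.13 to -1.25. It also missed with the replicate number as a block (limma adjusted p = 0.12) and with no filter on low values (limma adjusted p = 0.0859).

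E2F7 (ENSG00000165891, chr12:77021247-77065580, minus strand) restrains E2F1 together with E2F8. Its TPM was 16.39, 15.64 and 5.69 in the controls and 39.72, 26.79 and 36.65 in the rutaecarpine libraries. All treated libraries lay above all controls, and control replicate 3, at 35.5% of the mean of the other controls, widened the distance. The means were 12.6 ± 5.97 and 34.4 ± 6.76 TPM, with a log2 difference of 1.49 (SE 0.38, 95% confidence interval 0.60 to 2.37, limma adjusted p = 0.0551). Without control replicate 3 the ratio of the means was 2.15 and the log2 difference 1.04 (95% confidence interval 0.65 to 1.42), and E2F7 then passed the test (limma adjusted p = 0.00564). It passed in 5 of 16 alternatives in all, with log2 differences from 1.04 to 1.73 across them.

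**Figure D3:**
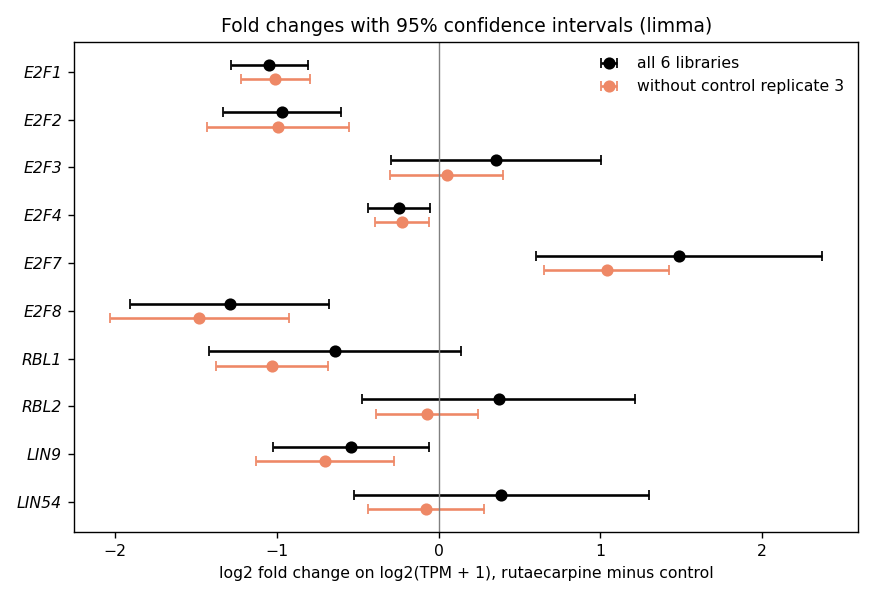
Log2 fold change of each member on log2(TPM + 1), rutaecarpine minus control, with the 95% confidence interval from limma, for all 6 libraries (black) and without control replicate 3 (orange). The interval of E2F7 narrows from 0.60 to 2.37 down to 0.65 to 1.42 without that library, that of RBL1 no longer reaches 0, and those of RBL2 and LIN54 centre near 0.

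The ratio of E2F7 to E2F8 within a library was looked at after the values above were seen, and has no test. E2F7 had 2.27, 2.29 and 1.29 times the TPM of E2F8 in the controls and 23.23, 20.61 and 13.04 times in the rutaecarpine libraries. The difference was 3.29 on the log2 scale, and 3.01 without control replicate 3. For the ratio of E2F7 plus E2F8 to E2F4, the values were 0.377, 0.376 and 0.158 in the controls against 0.792, 0.544 and 0.752 after rutaecarpine. The combined level of the atypical repressors relative to E2F4 was thus higher in every treated library, by 1.28 on the log2 scale and by 0.87 without control replicate 3. The ratio of E2F1 to E2F4, an activator to a repressor, was 0.791, 0.786 and 0.820 in the controls and 0.473, 0.460 and 0.419 after rutaecarpine, 1.78-fold lower. The controls were tight for this pair, control replicate 3 included. Each of the tested ratios gave p = 0.1 in the two-sided exact permutation test, the smallest p that 3 against 3 libraries allow.

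The 8 E2F genes of the table from E2F1 to E2F8 summed to 161.7, 154.8 and 146.42 TPM in the controls and to 146.07, 132.64 and 141.31 TPM after rutaecarpine. The sum was lower in every treated library, by a narrow gap, and its makeup shifted. The share of E2F1 in the sum was 30.7%, 30.3% and 35.7% in the controls (mean 32.2% ± 3.04) and 17.0%, 17.9% and 15.5% after rutaecarpine (mean 16.8% ± 1.19). The share of E2F7 was 10.1%, 10.1% and 3.89% in the controls and 27.2%, 20.2% and 25.9% after rutaecarpine, with means of 8.04% ± 3.60 and 24.4% ± 3.73. E2F4 held 40.3% ± 2.84 and 37.3% ± 1.55, ranges that overlapped. In the controls E2F1 ranked above E2F7 in every library, and in the rutaecarpine group E2F7 ranked above E2F1 in every library.

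**Figure D4:**
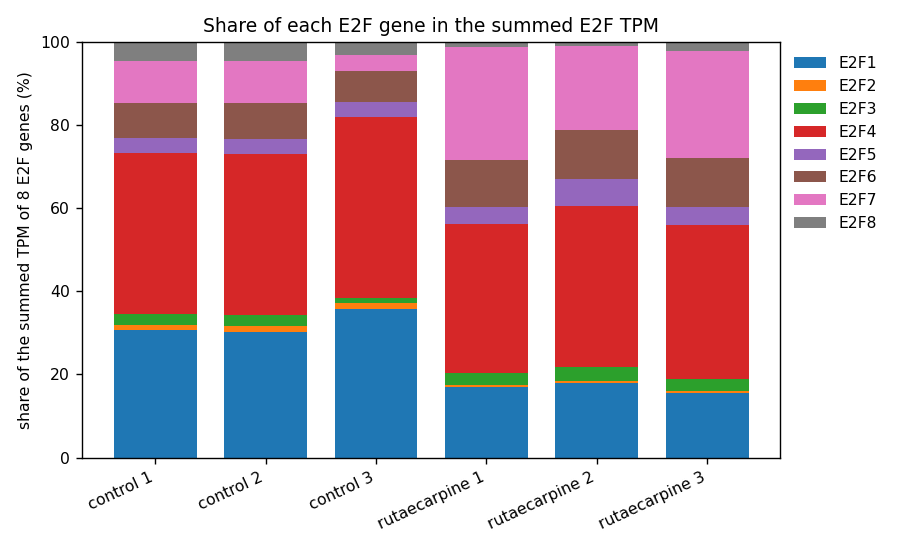
Share of each of 8 E2F genes in their summed TPM (%), 1 stacked bar per library. The E2F1 band shrinks from a mean of 32.2% in the controls to 16.8% in the rutaecarpine libraries and the E2F7 band widens from 8.04% to 24.4%, with control replicate 3 the lowest in E2F7.

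The order of the 10 members by mean TPM also changed. In the controls it ran E2F4, E2F1, RBL2, RBL1, E2F7, LIN54, E2F8, E2F3, LIN9 and E2F2, and the neighbours from RBL1 to E2F8 overlapped, as did those from E2F3 to E2F2. In the rutaecarpine group it ran E2F4, RBL2, E2F7, E2F1, LIN54, RBL1, E2F3, E2F8, LIN9 and E2F2. The only neighbours that overlapped there were RBL2 with E2F7 and E2F8 with LIN9.

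The pocket protein genes differed from each other. RBL1 (ENSG00000080839, chr20:36996349-37095995, minus strand) encodes p107, which is made in dividing cells, and its promoter held 2 consensus matches. Its TPM was 16.03, 16.65 and 6.71 in the controls and 8.14, 6.26 and 8.22 after rutaecarpine. Control replicate 3 fell inside the rutaecarpine range, so the groups overlapped. With all libraries the log2 difference was -0.64 (95% confidence interval -1.42 to 0.14, limma adjusted p = 0.292), and without control replicate 3 it was -1.03 (95% confidence interval -1.38 to -0.68, limma adjusted p = 0.00373), 2.17-fold lower. RBL1 passed in 3 of 16 alternatives in all.

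RBL2 (ENSG00000103479, chr16:53433977-53491649, plus strand) encodes p130, the pocket protein of resting cells. Its TPM was 45.58, 43.42 and 17.14 in the controls and 44.88, 35.16 and 47.88 in the rutaecarpine libraries. Apart from control replicate 3, at 38.5% of the other controls, the groups covered the same range. The log2 difference was 0.37 (95% confidence interval -0.48 to 1.22, limma adjusted p = 0.565), and without control replicate 3 it was -0.07 with an interval of -0.39 to 0.24. AKTIP lies on the opposite strand and overlaps RBL2 in the GENCODE 29 annotation, with up to 34.99 TPM. The strand setting of the quantification is not given in the sources used here, so reads of the overlap are uncertain.

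A ratio within a library does not depend on how the libraries are scaled. RBL1 had 0.352, 0.383 and 0.391 times the TPM of RBL2 in the controls and 0.181, 0.178 and 0.172 times in the rutaecarpine libraries. Control replicate 3, which was low in both genes, had a ratio like those of the other controls. The ratio was 2.12-fold lower after rutaecarpine, a log2 difference of -1.08 that was -1.05 without control replicate 3, and the two-sided exact permutation test gave p = 0.1, the smallest it can give.

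Of the MuvB subunits, LIN9 (ENSG00000183814, chr1:226231149-226309869, minus strand), which B-Myb binds together with LIN52, had a TPM of 3.44, 2.95 and 2.00 in the controls and 1.47, 1.43 and 1.84 after rutaecarpine. The groups did not overlap, though control replicate 3 and rutaecarpine replicate 3 came close. The log2 difference was -0.54 (SE 0.20, limma adjusted p = 0.161), and without control replicate 3 it was -0.70 and passed the test (limma adjusted p = 0.0372). LIN9 passed in 4 of 16 alternatives in all. LIN54 (ENSG00000189308, chr4:82909973-83012926, minus strand), the subunit that touches DNA, had 9.63, 11.62 and 3.39 TPM in the controls and 10.35, 8.59 and 11.11 TPM after rutaecarpine. Its values overlapped, and the log2 difference of 0.39 (limma adjusted p = 0.576) became -0.08 (95% confidence interval -0.44 to 0.28) without control replicate 3. THAP9 overlaps LIN54 on the opposite strand, at up to 2.01 TPM.

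The other subunits and partners of these complexes were measured as a list of 11 genes. Limma called 3 of them lower and 0 higher, against 4.68% and 4.60% of all tested genes. The count was 4 without control replicate 3, against 18.5% of all tested genes called in either direction. It was 1 without control replicate 1 or 2, against 4.69% and 4.99%. It was 2 without any single rutaecarpine library, against 3.75% to 4.49%. MYBL2, which encodes the B-Myb that replaces the pocket protein on MuvB, had 33.14, 32.24 and 36.20 TPM in the controls and 12.35, 10.65 and 12.15 TPM after rutaecarpine. The groups stood far apart, with a 2.89-fold difference (log2 -1.46, SE 0.12, limma adjusted p = 0.000874). FOXM1, which follows B-Myb onto the G2 genes, went from 59.1 ± 4.23 to 34.3 ± 4.70 TPM (log2 -0.77, limma adjusted p = 0.012). TFDP1, the usual dimer partner of E2F proteins, went from 136.3 ± 17.5 to 93.7 ± 5.55 TPM (log2 -0.53, limma adjusted p = 0.0321). MYBL1, the A-Myb gene, had 12.00, 11.73 and 3.93 TPM in the controls against 3.65, 2.79 and 3.78 TPM after rutaecarpine, with control replicate 3 just above the treated libraries. It did not pass with all libraries (log2 -1.09, limma adjusted p = 0.137), and passed without control replicate 3 (log2 -1.55, limma adjusted p = 0.000927) or with the trend on transcript length removed (limma adjusted p = 0.0107). The log2 differences of MYBL2, FOXM1 and TFDP1 without control replicate 3 were -1.41, -0.83 and -0.64, and all stayed called.

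The remaining 7 partners did not pass, with or without control replicate 3. LIN37 and LIN52, both MuvB subunits, had log2 differences of -0.01 and 0.38. The histone-binding subunit RBBP4 and the kinase DYRK1A, which promotes assembly of DREAM, had 0.25 and 0.50. E2F5 and E2F6, both repressors, had 0.22 and 0.33, and TFDP2, an alternative dimer partner, had 0.26. The median log2 difference was 0.22 over the 11 partners and -0.39 over the 10 members, against 0.08 over all tested genes, and without control replicate 3 these medians were 0.0045, -0.46 and -0.01.

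A list of 40 genes that E2F proteins are known to regulate at the G1/S transition was chosen with earlier results of these data known. Limma called 23 of them lower and 0 higher, against 4.68% and 4.60% of all tested genes. All 40 had a log2 difference below 0, as did 5847 of all 14377 tested genes. Their median was -0.89, against 0.08 over all tested genes. Without control replicate 3, 37 were called lower, against 10.3% of all tested genes, and the median was -0.95. Without any other single library 14 to 16 were called, where 3.75% to 4.99% of all tested genes were called in either direction. TK1, a thymidine kinase of S phase, had 140.31, 144.61 and 162.91 TPM in the controls and 53.45, 55.57 and 46.74 TPM in the rutaecarpine group (log2 -1.51, limma adjusted p = 0.000466). The groups were 2.88-fold apart. TYMS, which makes thymidylate, went from 101.9 ± 3.68 to 36.7 ± 5.06 TPM (log2 -1.46). GINS2, a part of the replicative helicase, fell from 10.2 ± 0.391 to 3.15 ± 0.410 TPM (log2 -1.43). UHRF1, which guides maintenance methylation of DNA, fell from 31.7 ± 8.01 to 10.9 ± 1.35 TPM (log2 -1.43). For TK1, TYMS, GINS2 and UHRF1 the log2 differences without control replicate 3 were -1.44, -1.48, -1.41 and -1.65. Of the 35 genes of this list with a promoter window, 20 (57.1%) held the E2F consensus letters.

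A list of 38 genes of G2 and mitosis, known targets of MuvB with B-Myb or FOXM1, was also chosen with earlier results known. Limma called 26 lower and 0 higher, against 4.68% and 4.60% of all tested genes. All 38 had a log2 difference below 0, as did 5847 of all 14377 tested genes, and the median was -0.83. Without control replicate 3 the count called lower was 37, against 10.3% of all tested genes, and the median was -0.93. Without any other single library the count was 17 or 18, where 3.75% to 4.99% of all tested genes were called in either direction. KIF20A, a kinesin of cytokinesis, had 33.47, 36.21 and 27.05 TPM in the controls and 10.59, 10.07 and 11.16 TPM after rutaecarpine, 3.04-fold lower (log2 -1.51, limma adjusted p = 0.00145). AURKB, a kinase of the chromosomal passenger complex, went from 50.8 ± 0.381 to 19.4 ± 1.19 TPM (log2 -1.35). CDCA3, which promotes mitotic entry, went from 42.6 ± 2.26 to 17.6 ± 1.84 TPM (log2 -1.23). NUSAP1, a spindle protein, went from 56.1 ± 16.8 to 23.0 ± 2.88 TPM (log2 -1.21), with control replicate 3 at 56.2% of the other controls. For KIF20A, AURKB, CDCA3 and NUSAP1 the log2 differences without control replicate 3 were -1.63, -1.35, -1.19 and -1.48. Of the 32 genes of this list with a window, 22 (68.8%) held the CHR letters.

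The promoter letters were also looked up over the whole table, with no test of the difference between shares. The genes of the lists above were not left out, and 20 E2F targets held the E2F letters and 22 MuvB targets the CHR letters. Of 701 tested genes whose window held the E2F letters, 58 (8.27%) were called lower, with a median log2 difference of 0.04, against 502 of 10357 genes with any window (4.85%) and a median of 0.08. For the CHR letters it was 101 of 1427 (7.08%) and a median of 0.07. For the letters of the AhR element it was 42 of 987 (4.26%) lower and 55 (5.57%) higher. Called higher were 492 of the genes with any window (4.75%), 30 with the E2F letters (4.28%) and 62 with the CHR letters (4.34%). When control replicate 3 was left out, 106 genes with the E2F letters (15.1%), 246 with the CHR letters (17.2%), 100 with the AhR letters (10.1%) and 1150 with any window (11.1%) were called lower. The medians were then -0.04 for the E2F letters, -0.07 for the CHR letters and -0.01 for any window.

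**Figure D5:**
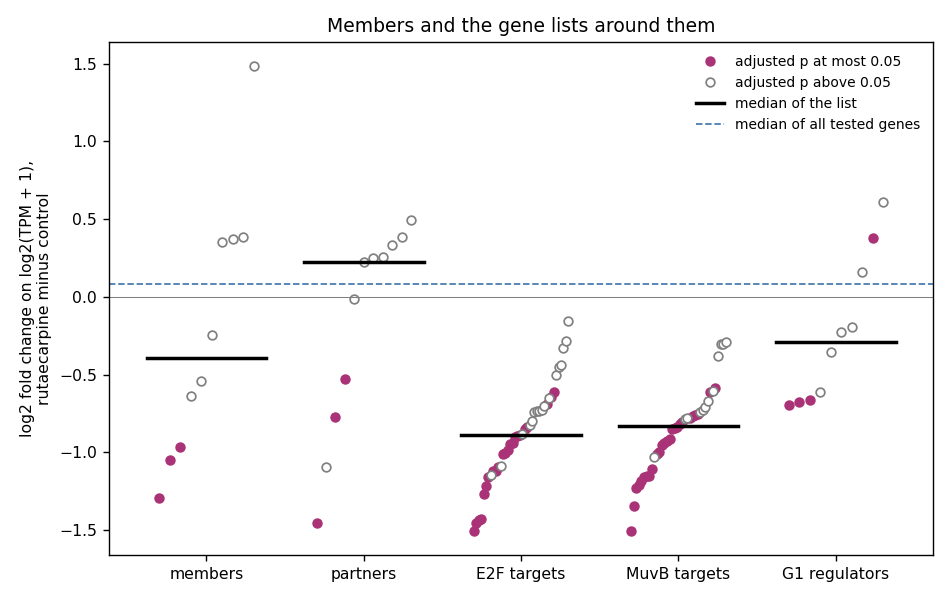
Log2 fold change on log2(TPM + 1), rutaecarpine minus control, of the members and of the 4 gene lists around them, sorted within each list, with filled points for genes past the adjusted p, a bar at each list's median and a dashed line at the median of all tested genes (0.08). The members spread from -1.29 (E2F8) to 1.49 (E2F7), whereas all 40 E2F targets and all 38 MuvB targets lie below 0.

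Upstream of the pocket proteins, cyclin-dependent kinases phosphorylate them in G1 and release E2F, and kinase inhibitors oppose this. Of 13 such regulators, 10 passed the filter on low values, and limma called 3 lower and 1 higher, against 9.29% of all tested genes in either direction. When control replicate 3 was left out, 5 were called lower and 2 higher, against 18.5% of all tested genes. Without any other single library 1 or 2 were called, against 3.75% to 4.99% of all tested genes. CDK2, the partner of cyclin E, had 44.40, 51.50 and 34.06 TPM in the controls and 25.92, 26.69 and 25.35 TPM after rutaecarpine (log2 -0.70, limma adjusted p = 0.0372). CDKN2D, an inhibitor of CDK4 and CDK6, went from 36.1 ± 1.37 to 22.3 ± 1.56 TPM (log2 -0.68, limma adjusted p = 0.00891), so this inhibitor was lower, not higher. MYC, which promotes G1 progression, went from 56.8 ± 1.30 to 35.5 ± 3.17 TPM (log2 -0.67, limma adjusted p = 0.00785). CDKN1A, the p21 inhibitor of CDK2, was the gene called higher, with 111.14, 121.12 and 116.17 TPM in the controls and 146.05, 148.60 and 160.01 TPM after rutaecarpine (log2 0.38, limma adjusted p = 0.028). Its groups did not overlap. The log2 differences without control replicate 3 were -0.86 for CDK2, -0.69 for CDKN2D, -0.68 for MYC and 0.38 for CDKN1A, all still called.

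By the study's second cutoff, an absolute log2 fold change above 1 besides the adjusted p, 3.51% of all tested genes were called, and 2 of the 10 members, E2F1 and E2F8, met both. On the log2(TPM + 1) scale E2F2 was at -0.97, short of that fold, whereas its means differed 3.53-fold and the log2 difference was -1.67 with a pseudocount of 0.1. For E2F7, which had the largest absolute change of the members on log2(TPM + 1) with all libraries, though not in the ratio of means or without control replicate 3, the 5 tested genes whose log2(TPM + 1) correlated best with it over the 6 libraries were TBX3 (r = 0.9999), SYNJ2 (0.9991), E2F6 (0.999), C12orf49 (0.9982) and CEP170 (0.9982). These are descriptions over 6 points that share 2 groups and the low control replicate 3, the highest values among all tested genes, and like E2F7 each had its lowest value in control replicate 3. TBX3, for example, had 21.79, 21.29 and 11.4 TPM in the controls and 38.05, 30.2 and 36.56 TPM after rutaecarpine.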

How the data were processed

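The authors quantified 6 RNA-seq libraries (Illumina) with RSEM and deposited TPM values per gene. GRCh38.p13, RSEM, DESeq2 and edgeR are named in the submitters' processing notes; the aligner and annotation release are not given in the sources used here. TPM keeps no read depth, so counting error is unknown. Groups followed the labels (3 and 3), and 0 columns lacked a sample. Of the genes, 35671 had no name in the file, and 60401 of 60671 identifiers matched a name table; LIN37, UHRF1 and PECAM1 were among those found through it. The 14377 genes reaching 1 TPM in 3 or more libraries entered the test, on log2(TPM + 1) with limma 3.58.1 (R 4.3.3, trended variance, two-sided) and Benjamini-Hochberg adjustment. The fit was also run on simulated data. These held no library that was low for long transcripts, so that run says nothing about the effect of control replicate 3. A gene was called at an adjusted p of at most 0.05. Fold changes on this scale understate those of low genes. Ratios were tested by exact permutation (scipy 1.17.1).

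Transcript lengths (the longest protein-coding transcript) and gene positions came from GENCODE 29, and promoter windows from RefSeq (GRCh38.p14). The members, gene lists and tests were chosen with earlier results of these data known. Genes named were all members and partners, the 4 genes of each other list with the largest change among those past the adjusted p, called genes against their list's direction, the markers, and the 5 genes most correlated with the member that changed most. Replicate numbers are shared between groups, but same-numbered libraries did not deviate together (correlations 0.116, -0.266 and -0.215), so they were not treated as pairs. Alternatives were other pseudocounts, filters, scalings, weights and cutoffs, a replicate block, and each library left out. Removal of the trend on transcript length and the ratio of E2F7 to E2F8 were chosen after seeing the data. A planned comparison of protein motifs was not run.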

Additional observations from a re-analysis of the deposited data

How the results depend on the processing

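E2F1 was the member past the adjusted p under every setting tried. Of the members, limma called 6 with the length trend removed, 5 with libraries centred on their medians, 7 with library weights and 1 with the replicate block, where the shares over all tested genes were 16.6%, 9.59%, 27.6% and 2.98%. Of the E2F targets it called 38 with the length trend removed or with library weights, and 36 with centred libraries or quantile normalization. It called 12 with a fold cutoff of 1 on the log2 scale as well, and 10 with the replicate block. At an adjusted p of at most 0.1 it called 35 E2F targets. The share of all tested genes at that cutoff was not counted, so this count cannot be set against it. Of the MuvB targets it called 13 with the replicate block and 10 with the fold cutoff, and of the partners 1 with either. Of the G1 regulators it called 8 with library weights, 2 without the variance trend, and 0 with the replicate block or the fold cutoff. Over all tested genes the share was 12.6% with quantile normalization, 8.43% without the variance trend and 3.51% with the fold cutoff. Leaving out each library in turn gave 1 to 6 members, 1 to 4 partners, 14 to 37 E2F targets, 17 to 37 MuvB targets and 1 to 7 G1 regulators, the highest without control replicate 3 each time, while 3.75% to 18.5% of all tested genes were called. The log2 difference of RBL2 ran from -0.072 to 0.61 and that of LIN54 from -0.079 to 0.68 over these fits, both negative only without control replicate 3, and LIN54 was -0.016 with library weights. The cause of these changes was not tested. By design, fits with a library left out have fewer samples and the block uses up degrees of freedom. The ratios were rerun only on log2(TPM + 1) values and with each library left out in turn, and kept their direction each time. Removal of the trend on transcript length was not applied to the ratios. Read depth is unknown, so its part in the spread cannot be given.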
